A study of Mus musculus with 18 samples.

Results

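The genes described here are 10 markers of epithelial and mesenchymal cells: the keratins Krt7, Krt8, Krt18 and Krt19, the adhesion molecules Cdh1, Cdh2 and Epcam, the mucin Muc1, and the mesenchymal genes Vim and Zeb1. They were chosen by name, as the rows of the deposited expression table that carry these symbols, and are 10 of its 25239 genes. All 10 were found, and all passed the filter on low values, which asks for 1 TPM in 3 samples. Epcam reached 1 TPM in 5 samples, 4 of them of the cell line 4711-18, so it was tested only because of the line in which it is highest. Epithelial cells are held together by cadherin and desmosome contacts and carry keratin filaments, in which a type II keratin such as Krt8 pairs with a type I keratin such as Krt18. Mesenchymal cells use vimentin filaments (Vim) and N-cadherin (Cdh2). In an epithelial-mesenchymal transition, transcription factors such as Zeb1 repress Cdh1, which encodes E-cadherin, by binding E-boxes.

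RNA was sequenced from 18 samples of 3 mouse cell lines, 4711-1, 4711-18 and 4716-11, derived from small cell lung cancers of the study's Type D class, which is the class that dies upon p53 restoration. All 18 samples carry the deletion of Rb1 and Rbl2 and the XTR allele of Trp53, a gene trap that FlpO-ER, expressed from Rosa26, removes when 4-hydroxytamoxifen (4-OHT) is given. Each line carried sgBgal, a guide against β-galactosidase, or 1 of the 2 guides against Ppia, sgPpia#3.2 and sgPpia#4.1. Ppia encodes cyclophilin A, and the study describes its level in the targeted cells as lowered but still detectable. Each population was treated for 72 h with vehicle (Control) or 4-OHT (Restored), which gave 6 conditions of 3 samples with the cell line as the replicate. All values below come from cells in culture.

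Values are TPM, a transcript abundance that is corrected for gene length and sums to the same total in each sample, so levels of different genes can be compared while absolute depth is unknown. Depth relative to the shallowest sample had a median of 1.56 among Control and 1.3 among Restored samples. Trp53 was between 5.45 and 8.41 TPM in Control and between 181 and 236 TPM in Restored samples. Defining neuroendocrine markers of small cell lung cancer were near 0: Neurod1, Chga, Chgb, Calca and Dll3 were below 1 TPM in all 18 samples, Syp did not exceed 7.12 TPM, and Ncam1 reached 29.7 TPM. All 6 fibroblast markers were below 1 TPM in every sample, and their summed level was 0.387 to 1.05 TPM in Control and 0.475 to 1.11 TPM in Restored samples. Of the 4 endothelial markers, 3 stayed below 1 TPM, with a summed level of 0.142 to 1.51 TPM in Control and 0.362 to 1.11 TPM in Restored samples. Among the leukocyte markers, Ptprc and Cd3e were below 1 TPM throughout, whereas Cd68 rose on restoration (log2 fold change 2.88, limma adjusted p = 2.45e-08). The leukocyte sum was 2.97 to 7.38 TPM in Control and 22.6 to 42.6 TPM in Restored samples. Its part in the results below was not tested.

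RefSeq promoter sequences (GRCm38.p6) were at hand for 6 of the 10 genes: Krt7, Krt8, Krt18, Epcam, Vim and Muc1. The 250 bases before the start site are shown for Krt7, Krt8, Krt18, Epcam and Muc1, 5′ to 3′ on the gene's own strand. Krt8 and Krt18 form a keratin pair, and Krt7 and Muc1 were called in contrasts between lines and on restoration. The values of Epcam in such contrasts are descriptions, as its high samples brought it into the test. Capitals mark an E-box CAGGTG or its reverse complement CACCTG, the motif that Zeb and Snail factors recognize.
Krt7, chr15:101412153-101412402, plus strand: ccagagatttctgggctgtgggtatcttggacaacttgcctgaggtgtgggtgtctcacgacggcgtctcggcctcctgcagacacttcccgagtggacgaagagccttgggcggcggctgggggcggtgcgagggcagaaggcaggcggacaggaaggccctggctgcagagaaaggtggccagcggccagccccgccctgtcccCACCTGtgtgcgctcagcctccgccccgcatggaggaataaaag
Krt8, chr15:102004343-102004592, minus strand: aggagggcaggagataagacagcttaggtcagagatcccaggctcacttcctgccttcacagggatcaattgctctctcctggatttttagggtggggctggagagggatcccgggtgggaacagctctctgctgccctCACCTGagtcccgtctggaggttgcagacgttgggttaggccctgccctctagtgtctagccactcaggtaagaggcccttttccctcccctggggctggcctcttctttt
Krt18, chr15:102027966-102028215, plus strand: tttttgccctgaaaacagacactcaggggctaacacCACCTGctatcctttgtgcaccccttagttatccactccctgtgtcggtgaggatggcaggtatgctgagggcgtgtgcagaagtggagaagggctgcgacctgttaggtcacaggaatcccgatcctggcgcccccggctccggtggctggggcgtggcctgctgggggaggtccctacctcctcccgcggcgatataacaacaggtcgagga
Epcam, chr17:87635729-87635978, plus strand: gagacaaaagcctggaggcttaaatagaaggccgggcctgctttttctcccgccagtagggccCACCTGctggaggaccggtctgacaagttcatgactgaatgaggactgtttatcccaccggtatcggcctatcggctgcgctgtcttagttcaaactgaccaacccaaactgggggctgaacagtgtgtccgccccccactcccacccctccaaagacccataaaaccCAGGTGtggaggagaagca
Muc1, chr3:89228806-89229055, plus strand: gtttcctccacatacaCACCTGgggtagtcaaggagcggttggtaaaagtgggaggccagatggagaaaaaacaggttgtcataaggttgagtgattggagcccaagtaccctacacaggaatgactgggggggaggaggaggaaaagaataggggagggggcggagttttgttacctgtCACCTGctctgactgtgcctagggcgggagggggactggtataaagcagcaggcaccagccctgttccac

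The windows of Krt7, Krt8 and Krt18 hold 1 E-box each, those of Muc1 and Epcam hold 2, and that of Vim holds 0. Of 32851 RefSeq windows of 250 bases, 17.2% hold at least 1. Krt8 and Krt18 lie close together on chromosome 15 and face in opposite directions. A match describes these letters and is not evidence of binding.

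The lines carried high levels of both simple keratins and vimentin. Krt8 averaged 4970 TPM over the 18 samples (2149 to 8337) and ranked 5 among the 12828 genes tested. Krt18 averaged 4352 TPM (2272 to 8542, rank 8), Vim 3891 TPM (2436 to 6133, rank 11) and Krt19, a type I keratin of simple epithelia, 2946 TPM (2161 to 5003, rank 29). Krt7, Krt8, Krt18 and Krt19 together made up 0.673% to 2.07% of all TPM, and Vim alone 0.244% to 0.613%. Cdh1 followed at 497.8 TPM (264 to 924) and Krt7, a type II keratin of simple epithelia, at 101.5 TPM (7.53 to 354). The remaining 4 were low: Muc1, a transmembrane mucin of the apical surface, at 12.3 TPM (3.73 to 30.9), Zeb1 at 12.1 TPM (7.08 to 16.9), Cdh2 at 4.92 TPM (0.218 to 16.4) and Epcam, an epithelial adhesion molecule, at 1.18 TPM (0 to 6.25). The ranges of Krt8, Krt18, Vim and Krt19 overlapped, as did those of Muc1, Zeb1 and Cdh2, and Epcam overlapped Muc1 and Cdh2 but not Zeb1. Epcam was below 1 TPM in 13 samples and Cdh2 in 6. Cdh1 exceeded Cdh2 in every sample, by 27.6 to 1591 times.

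**Figure D1:**
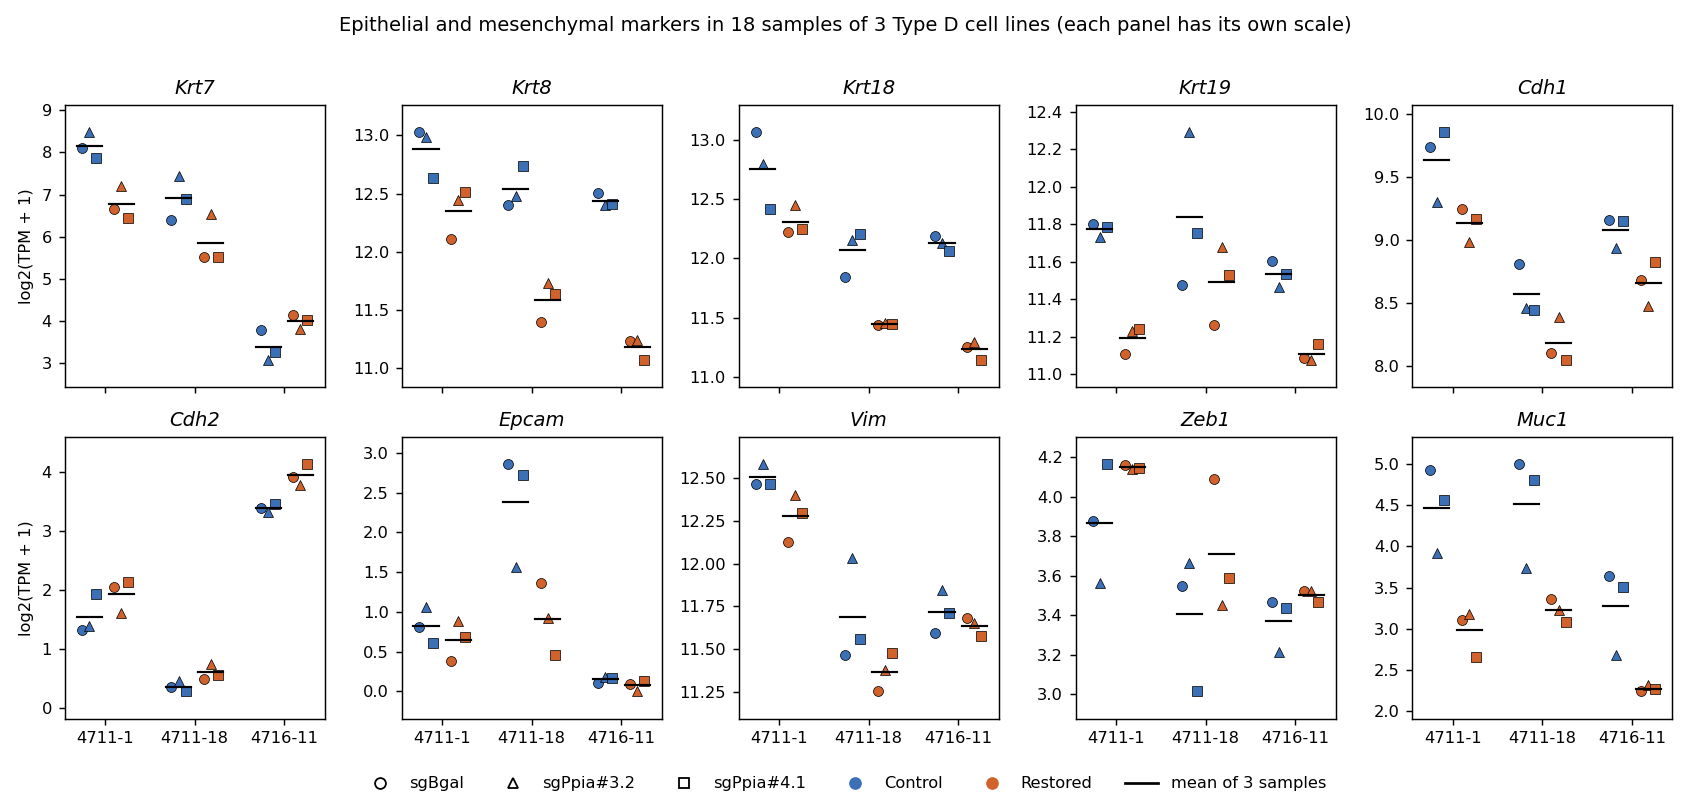
Level of each marker, as log2(TPM + 1) on the vertical axis (each panel with its own scale), in the 3 cell lines on the horizontal axis, with Control samples in blue, Restored samples in orange, the sgRNA as the symbol and a bar at the mean of 3 samples. Cdh2 separates the 3 lines and Krt7 sets 4716-11 apart from the other lines, whereas Muc1 and Krt8 are lower in the Restored samples of each line.

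Muc1, Krt8, Krt18 and Krt19 were lower in cells with restored p53. Muc1 lay between 5.42 and 30.9 TPM in Control samples (median 14.1, n = 9) and between 3.73 and 9.31 TPM in Restored samples (median 7.45). The groups overlapped across lines but not within any line, and Muc1 was lower in all 9 pairs of samples that shared a line and an sgRNA, at 23.5% to 73.6% of the Control level. Averaged over the 3 sgRNAs its log2 fold change was -1.26 ± 0.27 (SE, limma adjusted p = 0.00203), and Muc1 was the only marker called. A call required an adjusted p under 0.05 together with a change of 1 or more on the log2 scale. Of all genes tested, 2.56% were called lower and 6.37% higher, so 1 of 10 is a share near the background. Without 4711-1 the adjusted p of Muc1 was 0.0612.

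Krt8 lay between 5402 and 8337 TPM in Control samples (median 5808) and between 2149 and 5826 TPM in Restored samples (median 3187). It was lower in all 9 pairs, and within each line the groups did not overlap. Its log2 fold change was -0.91 ± 0.21 (SE, limma adjusted p = 0.00342), just short of the fold threshold. Krt18, its filament partner, lay between 3687 and 8542 TPM in Control and between 2272 and 5596 TPM in Restored samples, and its log2 fold change was -0.66 (adjusted p = 0.0313). Krt19 lay between 2827 and 5003 TPM in Control and between 2161 and 3279 TPM in Restored samples, with a log2 fold change of -0.45 (adjusted p = 0.00882). Both were lower in all 9 pairs. Muc1, Krt8, Krt18 and Krt19 were the 4 of 10 markers lower at an adjusted p under 0.05 alone, against 11.2% of all genes. The summed level of the 4 keratins was 12017 to 20725 TPM in Control samples and 6726 to 13722 TPM in Restored samples. The ratio of Krt8 to Krt18 was 0.976 to 1.47 in Control (median 1.24) and 0.924 to 1.21 in Restored samples (median 0.98). That ratio was not tested.

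The other 6 markers were also compared. Cdh1 was lower in all 9 pairs, at 61.4% to 95.2% of the Control level (log2 fold change -0.44, adjusted p = 0.152), and Cdh2 was higher in all 9, at 120% to 220% (0.39, adjusted p = 0.689). Vim was lower in 8 of 9 pairs (-0.21, adjusted p = 0.466), and Zeb1 was higher in 7 of 9 (0.24, adjusted p = 0.291, and 0.06 after rescaling). Epcam was lower in 8 of 9 pairs (-0.58, adjusted p = 0.278), and Krt7 in 6 of 9 (-0.61, adjusted p = 0.618). None of these 6 passed the test, in which the differences between lines count as error. When the line was entered as a replicate block, Cdh1 (adjusted p = 0.000359) and Vim (0.0153) passed an adjusted p of 0.05, both lower. The 4 named above passed too, in the same direction. Epcam was lower as well (adjusted p = 0.0463), but that value is a description, since Epcam passed the filter mainly through Control samples. With Epcam counted, this made 7 of 10 lower, against 19.3% of all genes. Cdh2 was the 1 marker higher (adjusted p = 0.00292), against 44.1% of all genes. Muc1 remained the only marker past the fold threshold in that fit. The median log2 fold change was -0.51 over the 10 markers and 0.17 over all genes, and after median-of-ratios rescaling, which brings the latter to -0.01, it was -0.65.

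**Figure D2:**
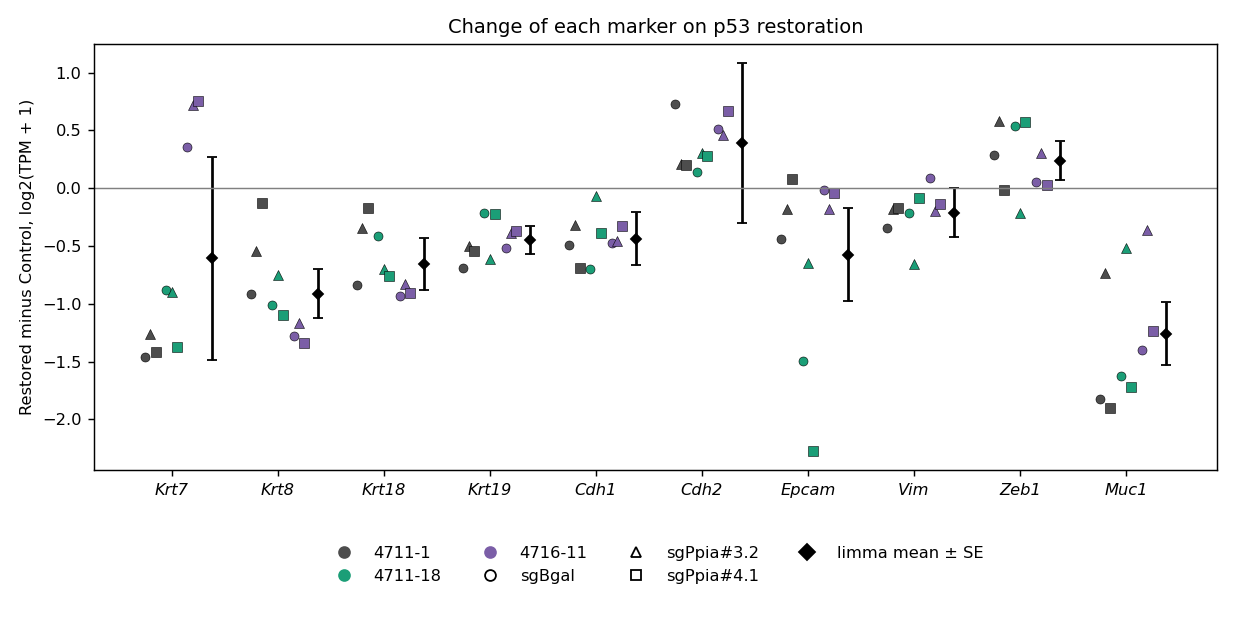
Restored minus Control difference of log2(TPM + 1), on the vertical axis, for each marker on the horizontal axis, with 1 point for each of the 9 pairs (colour: cell line, symbol: sgRNA) and a diamond for the limma mean with its SE. All 9 points of Muc1, Krt8, Krt18, Krt19 and Cdh1 are below 0 and all 9 of Cdh2 above 0, whereas Krt7 lies above 0 only in 4716-11.

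The response was next compared between sgRNAs. Muc1 was called lower with sgBgal (log2 fold change -1.62, SE 0.47, limma adjusted p = 0.033), against 2.17% of all genes called lower. It was also called lower in sgPpia#4.1 cells (-1.62, limma adjusted p = 0.0396), against 1.79%. Without 4711-1 or without 4711-18 neither call was made (adjusted p of 0.242 and 0.162 for sgBgal, and 0.246 and 0.221 for sgPpia#4.1), nor was it with no filter on low values (0.0619 and 0.075). With sgPpia#3.2 it was not called (-0.54, adjusted p = 0.536), against 1.31%. The difference between the responses was itself tested, and no marker and none of the 12828 genes passed for either guide (0 at an adjusted p of 0.05, with and without the block). Without the block, 0 of 10 markers had an unadjusted p under 0.05 for either guide, while 31 and 18 of all genes did for sgPpia#3.2 and sgPpia#4.1. With it, Muc1 was the 1 marker for sgPpia#3.2, among 175 of all genes (1.36%), and the count was 0 for sgPpia#4.1, among 80. The Muc1 change on restoration was -0.73, -0.51 and -0.36 in 4711-1, 4711-18 and 4716-11 with sgPpia#3.2. In the same order it was -1.83, -1.63 and -1.40 with sgBgal. The difference was 1.08 on the log2 scale (SE 0.66 without and 0.21 with the block, limma adjusted p = 1 in both). Krt8 was called with sgBgal in the blocked fit (-1.07, adjusted p = 0.00101, against 3.32% called lower).

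The levels of Muc1 were compared between guides. In Restored cells of 4711-1, 4711-18 and 4716-11 Muc1 was at 7.6, 9.315 and 3.73 TPM with sgBgal. With sgPpia#3.2 it was at 8.07, 8.34 and 3.99 TPM, and the log2 fold change was 0.004. The values that follow are of Control cells. Muc1 was at 29.5, 30.9 and 11.5 TPM with sgBgal in 4711-1, 4711-18 and 4716-11, and at 14.1, 12.3 and 5.42 TPM with sgPpia#3.2, lower in 3 of 3 lines. The sgPpia#4.1 samples were at 22.5, 26.8 and 10.4 TPM. The log2 fold change for sgPpia#3.2 was -1.08 (SE 0.47), with a limma adjusted p of 1, when 0% of all genes were called. In the blocked fit it was called (adjusted p = 0.0381), as 1 of 2 genes, or 0.0156%. With block and rescaling together the adjusted p was 0.101. Without the block no other marker had an unadjusted p under 0.05 for either guide in Control or Restored cells. With it, Cdh1 (-0.33, limma adjusted p = 0.36) and Vim (0.31, adjusted p = 0.315) did so for sgPpia#3.2 in Control cells, as did 12.7% of all genes.

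On the log2(TPM + 1) scale, which understates differences of low genes such as Epcam, Krt7 and Cdh2 differed most between the cell lines. For these tests the 3 sgRNA populations of a line served as replicates, so the p-values compare these lines only. Krt7 was at 86.4 to 354 TPM in 4711-1, 44.8 to 173 TPM in 4711-18 and 7.53 to 16.8 TPM in 4716-11, with no overlap between 4716-11 and either other line. Its log2 difference was -3.77 ± 0.21 (SE) for 4716-11 against 4711-1 (limma adjusted p = 1.09e-09) and -2.69 against 4711-18 (adjusted p = 4.52e-08). Cdh2 was highest in the line where Krt7 was lowest, at 1.51 to 3.38 TPM in 4711-1, 0.218 to 0.689 TPM in 4711-18 and 8.94 to 16.4 TPM in 4716-11, with no overlap between any of the lines. It was higher in 4716-11 than in 4711-18 by 3.17 on the log2 scale (adjusted p = 3.13e-12) and than in 4711-1 by 1.92 (adjusted p = 2.14e-09).

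Besides these, Muc1 was called lower in 4716-11 than in 4711-18, by a log2 difference of -1.09 (limma adjusted p = 0.000607). After rescaling, Muc1 was at -0.93, below the fold threshold. Epcam reached 6.25 TPM in 4711-18 and 0.131 TPM in 4716-11, a log2 difference of -1.53 that is given as a description, since 4711-18 brought Epcam into the test. Krt7, Cdh1 and Cdh2 were called lower in 4711-18 than in 4711-1, with log2 differences of -1.08, -1.01 and -1.25. Without the sgBgal samples Krt7 (-0.90) and Cdh1 (-0.99) were below the fold threshold, and Cdh1 was so too without those of sgPpia#4.1 (-0.88). For 4711-18 against 4711-1 this made 0 higher and 3 lower of 10 markers, where 3.82% of all genes were higher and 5.15% lower. For 4716-11 against 4711-1 it made 1 and 1, where 2.43% were higher and 4.42% lower, and for 4716-11 against 4711-18 1 and 3, Epcam being 1 of the 3, where 3.82% were higher and 5.16% lower. Vim was highest in 4711-1, at 4474 to 6133 TPM, and did not overlap the other lines (2436 to 4193 TPM in 4711-18 and 3049 to 3683 TPM in 4716-11), which overlapped each other. Cell line accounted for 96.1% of the variance of log2(TPM + 1) of Cdh2, 86.4% of Krt7, 82.6% of Vim and 69.9% of Cdh1, and treatment for 57.4% of Krt8, 52% of Muc1 and 51.7% of Krt19. For the median gene tested, line accounted for 37.4% and treatment for 22.6%.

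The values of Krt7 before and after restoration were compared line by line. In 4711-1 it was at 276, 354 and 233 TPM in Control cells with sgBgal, sgPpia#3.2 and sgPpia#4.1, and at 99.8, 147 and 86.4 TPM in Restored cells. In 4711-18 the values were 83.6, 173 and 118 TPM in Control and 44.9, 92.2 and 44.8 TPM in Restored cells. In 4716-11 they were 12.9, 7.53 and 8.6 TPM in Control and 16.8, 13.1 and 15.2 TPM in Restored cells. Krt7 was lower in the Restored sample of each pair of the first 2 lines and higher in each pair of 4716-11, and only 4711-18 showed overlap of the states. Krt7 was called lower in 4711-1 (log2 fold change -1.38, SE 0.30, limma adjusted p = 0.00258) and in 4711-18 (-1.05, adjusted p = 0.00906), and in 4716-11 its value was 0.61 (adjusted p = 0.123). The response in 4716-11 differed from that in 4711-1 by 1.99 ± 0.43 (SE, adjusted p = 0.0292), where 1.47% of all genes passed. Against 4711-18 it differed by 1.66 (adjusted p = 0.053, 2.52% passed). The first difference did not pass without the sgBgal samples (adjusted p = 0.222) or without those of sgPpia#4.1 (adjusted p = 0.502), nor with a pseudocount of 0.1 (0.0614) or no filter on low values (0.0608).

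The other markers were also compared within each line. In 4711-1, Muc1 and Krt7 were called lower, as 2 of 10, against 2.82% of all genes. In 4711-18, Muc1 and Krt7 were called lower, against 4.16%. Epcam also passed both thresholds there but is not counted, for the reason given below. Without the sgPpia#4.1 samples Muc1 was not called in 4711-1 (adjusted p = 0.0626), and neither Muc1 (0.0934) nor Krt7 (0.135) was called in 4711-18. In 4716-11, Krt8 was the 1 called lower, from 5808, 5417 and 5438 TPM in Control to 2396, 2418 and 2149 TPM in Restored cells (log2 fold change -1.26, limma adjusted p = 3.38e-06), against 2.98% of all genes. Muc1 in 4716-11 had an adjusted p of 0.0183 by limma and missed the fold threshold by less than rounding shows. After rescaling it was at -1.17 and called, as 1 of 3 markers. Epcam in 4711-18 went from 6.25, 1.97 and 5.62 TPM to 1.57, 0.90 and 0.369 TPM (log2 fold change -1.47). It passed the filter mainly through these 3 Control samples, so this value too is a description. The 1.97 TPM belonged to the sgPpia#3.2 Control library of 4711-18. In that library Cdkn1a, a p53 target, was at 369 TPM against 99.4 to 171 TPM in the other 8 Control libraries, Krt19 was above all of them, and Ppia and Trp53 were below all of them. These are 4 of the 13 genes so compared, and the sgBgal Control library of 4711-18 lay outside the other 8 in 6. Without the sgPpia#3.2 Control library Krt7 in 4711-18 was at -0.79 (adjusted p = 0.0458), below the fold threshold.

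The markers were related to each other as follows, described over the 18 samples, which share lines and treatments. Krt8 and Krt18 varied together (Pearson r = 0.944, and 0.96 after the mean of each line was removed). For Cdh1 and Vim r was 0.773 overall and 0.26 with line means removed, and for Cdh1 and Muc1 it was 0.338 overall and 0.853 with line means removed. For Cdh2 and Krt18 r was -0.262 overall and -0.871 with line means removed, and for Cdh2 and Epcam -0.786 and -0.414. The genes most like Krt8 in pattern over the 18 samples were Nostrin (r = 0.966), Dok4 (0.953) and Wdr83 (0.945). For Muc1 they included Plch1 (r = 0.935) and Eif3l (0.934). For Krt7 they were Palmd (0.957), Zfp13 (0.954) and Prkar1b (0.94), and for Cdh2 Soga3 (0.974), Aim2 (0.963) and Astn2 (0.961), where Aim2 and Astn2 gave 0.079 and 0.041 with line means removed.

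**Figure D3:**
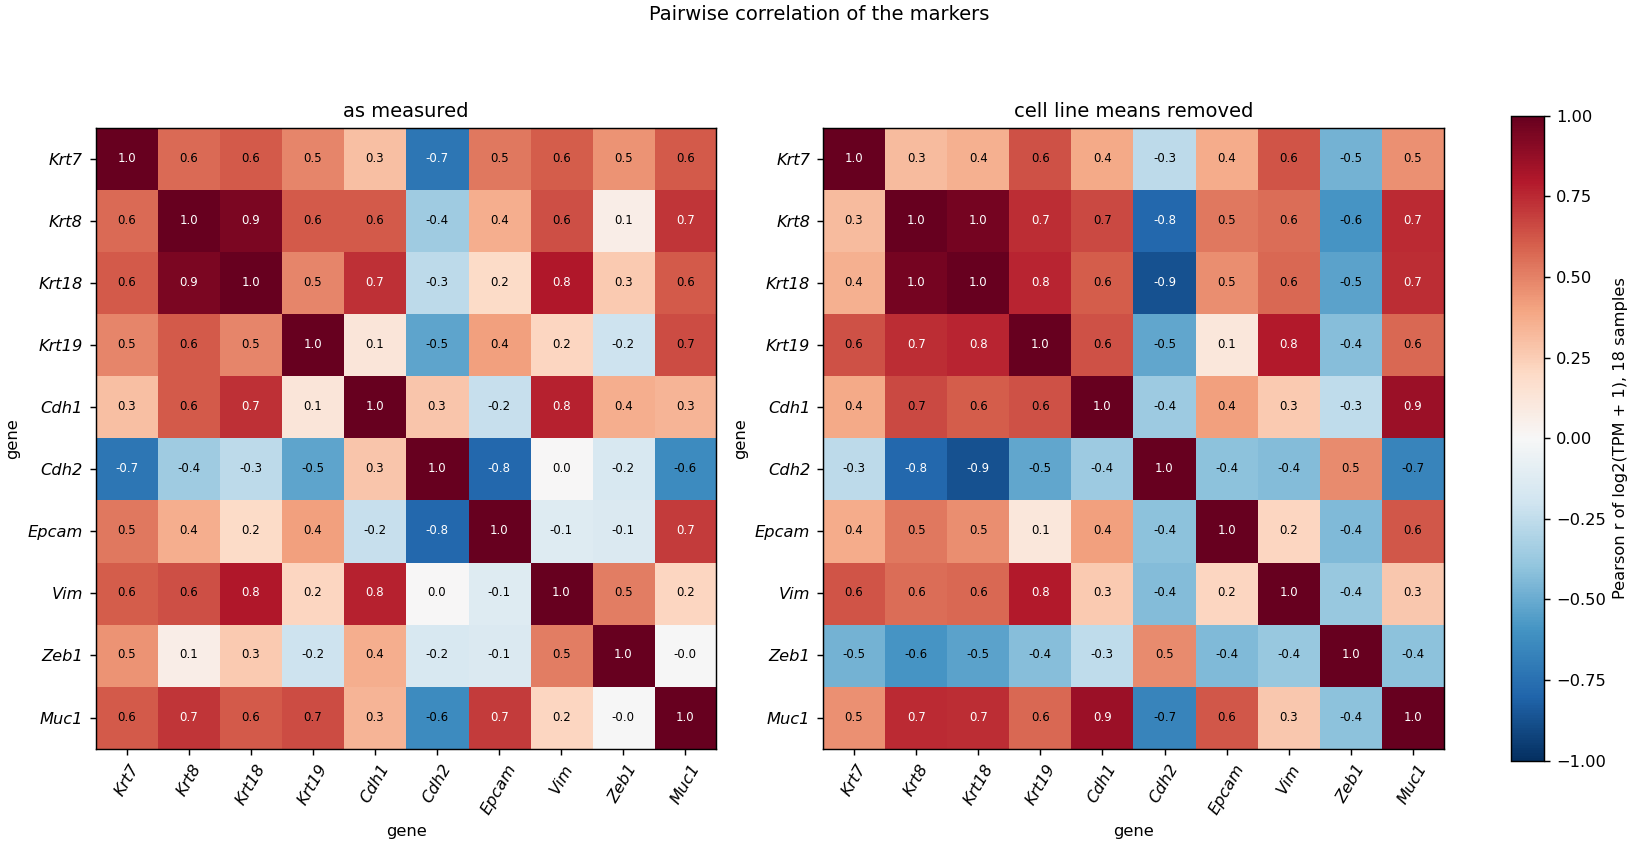
Pearson r of log2(TPM + 1) between each pair of markers over 18 samples, as measured on the left and after removal of each line's mean on the right, with both axes listing the markers. Krt8 and Krt18 give 0.944 and 0.96, and the relation of Cdh1 to Vim drops from 0.773 to 0.26.

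Related genes were described on the same contrast, restoration averaged over the sgRNAs. Of 8 other keratins tested, Krt13 (log2 fold change 1.53, limma adjusted p = 0.0014) and Krt6a (1.07, adjusted p = 0.00756), keratins of stratified epithelia, rose and 0 fell, where 6.37% of all genes were called higher and 2.56% lower. The list's median was 0.52 and that of all genes 0.17. Krt6a was at 0.97 after rescaling, below the fold threshold. Only 1 of the list was called without 4711-18, without 4716-11, or without the sgPpia#3.2 Control library of 4711-18. Of 20 junction genes none was called, and 9 had an unadjusted p under 0.05, a share near the 47.8% of all genes tested. In the blocked fit the tight junction gene Cldn4 was called higher (1.22, limma adjusted p = 0.00163). In that fit 44.1% of all genes were higher at an adjusted p under 0.05 alone. Of 11 epithelial regulators and proteases, Elf3, an epithelial transcription factor, was called and fell by 1.15 on the log2 scale (limma adjusted p = 3.58e-06). Of all genes 2.56% were called lower. St14, which encodes the membrane protease matriptase, also passed both thresholds (3.32), from a mean of 0.219 TPM in Control to 12.9 TPM in Restored samples. It passed the filter through Restored samples, so its value is a description. Neither of 2 other mucins tested was called (Muc5b -0.88 and Muc13 -0.79).

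Of 6 other transcription factors of the epithelial-mesenchymal transition and 9 TGF-beta pathway genes, 0 were called in either direction. At an unadjusted p under 0.05 there were 1 and 4, against the same 47.8% of all genes. Of 13 mesenchymal and matrix genes, Fn1, which encodes fibronectin (1.80, limma adjusted p = 0.00725), and Tgfbi, a matrix protein (1.94, adjusted p = 0.00156), rose and 0 fell, again beside 6.37% and 2.56% of all genes. In this list 1 gene was called without 4711-18 or without 4716-11. In the blocked fit Mmp14, a membrane-bound matrix protease, was also called higher (1.62, limma adjusted p = 6.48e-06) and S100a4 lower (-1.20, adjusted p = 0.000142). At an adjusted p under 0.05 alone, 44.1% of all genes were higher and 19.3% lower in that fit. The fibroblast collagen Col1a1 stayed below 1 TPM.

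**Figure D4:**
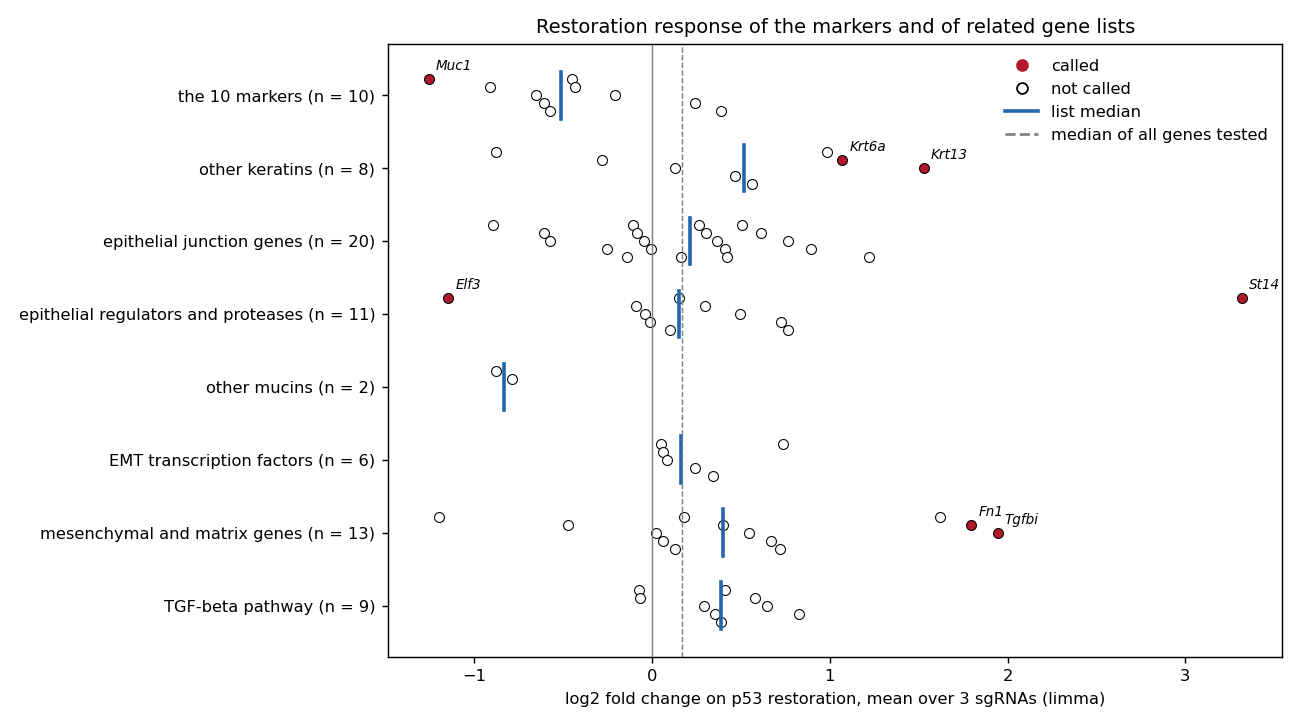
Log2 fold change on restoration (horizontal axis, limma mean over 3 sgRNAs) for each gene of 8 lists (vertical axis), with called genes filled and named, a blue bar at each list's median and a dashed line at the median of all genes tested, 0.17. The median of the 10 markers is -0.51, and that of the mesenchymal and matrix genes 0.40.

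Bulk RNA cannot tell fewer cells of a type from less RNA per cell. GENCODE M21 lists a processed pseudogene of Krt8, and how the authors assigned reads shared with such copies is not given in the sources used here.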

How the data were processed

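The authors deposited TPM (transcript abundances scaled to a common total) for 25239 genes in 18 columns, 1 per sample. The submitters' processing notes name bcl2fastq 2.17 and HISAT2, and the paper names Kallisto or HISAT2 and limma or DESeq2. The counter, the annotation and any filter are not given in the sources used here, and both mm10 and GRCm39 are named as builds. TPM keep no total count, so no counting interval was computed. Relative depth was read from the smallest steps between low values.

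log2(TPM + 1) was fitted with limma 3.58.1 (R 4.3.3) for 12828 genes, those that reached 1 TPM in 3 or more samples, once with 6 condition means and once with 6 means of cell line and treatment. Fold changes on this scale understate those of low genes. Adjusted p-values are Benjamini-Hochberg over all genes tested. Calls needed an adjusted p under 0.05 together with a change of 1 or more on the log2 scale, and differences between responses the adjusted p alone. The labels give the cell line, which pairs the samples: deviations from condition means correlated at 0.729 on average within lines (45 pairs, lowest 0.58). The average between samples of different lines and conditions was -0.361 (90 pairs). It adds nothing to the first value, since the deviations within a condition cancel out. Nothing says that samples of a line came from separate cultures, so p-values between lines measure the spread between these samples. Descriptions used Python 3.11.15. The calculations were tested on simulated data. These were drawn independently for each sample, so they lack the likeness of samples from the same line.

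The 10 markers and all lists were chosen with earlier results of these data known. The named genes were all markers, up to 3 called genes per list and direction with the largest change (else the most abundant), and the 3 genes most correlated with a marker. Cldn4, Mmp14, S100a4 and the mucins were named after their values were seen. Alternatives were a pseudocount of 0.1, other filters, rescaling, eBayes settings, the replicate block, an sgRNA term and leaving out each line or sgRNA. Some other genes that were examined are not reported here. The block with rescaling, and the omission of 1 library, were added after the data were seen.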

Additional observations from a re-analysis of the deposited data

Results flagged for a closer look

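The response of Krt7 to restoration in 4716-11 differed from that in 4711-1 by 1.99 on the log2 scale (limma adjusted p = 0.0292). It did not pass without the sgBgal samples (adjusted p = 0.222), without those of sgPpia#4.1 (0.502), with a pseudocount of 0.1 (0.0614) or with no filter on low values (0.0608). The difference from 4711-18 was 1.66 and did not pass (adjusted p = 0.053). In value, each of 3 pairs of 4716-11 was higher in Restored cells and each of 3 pairs of either other line was lower. Krt7 was low in 4716-11, at no more than 16.8 TPM.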

How the results depend on the processing

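Counts of called markers changed as follows. For restoration averaged over sgRNAs (1 in the reported fit) rescaling gave 2, alone and with the block, Krt8 being added. For sgBgal (1) no filter gave 0, rescaling 2, the replicate block 2, and block with rescaling 2, and leaving out a line gave 0 to 1. For sgPpia#4.1 (1) no filter gave 0, block with rescaling 2, and leaving out a line 0 to 1. For sgPpia#3.2 (0) block with rescaling gave 1. For sgPpia#3.2 against sgBgal in Control cells (0) the replicate block gave 1. Between lines, 4716-11 against 4711-1 (2) gave 4 with a pseudocount of 0.1, and 4711-18 against 4711-1 (3) gave 1 to 3 when an sgRNA was left out. Restoration within a line gave 1 to 2 in 4711-1 (2), 1 to 3 in 4711-18 (3) and 1 to 2 in 4716-11 (1) when an sgRNA was left out, and in 4716-11 also 2 with a pseudocount of 0.1 and 3 with rescaling. Rescaling also gave 4 in 4711-18, with Krt8 added (-1.21), and 3 in place of 4 for 4716-11 against 4711-18, with Muc1 lost (-0.93). The reported counts of 3 in 4711-18 and of 4 for 4716-11 against 4711-18 include Epcam, whose values there are descriptions. For the difference in response between 4716-11 and 4711-1 (1, Krt7) a pseudocount of 0.1 and no filter gave 0, and leaving out an sgRNA 0 to 1. Between 4716-11 and 4711-18 (0) rescaling gave 1, an sgRNA term 1, omission of the 4711-18 sgPpia#3.2 Control library 1, and leaving out an sgRNA 0 to 2. Between 4711-18 and 4711-1 (0) that omission gave 1 and leaving out an sgRNA 0 to 1. Of the values recomputed for each alternative, which are not all marker values, signs reversed for some that had not passed: under rescaling Krt18 (0.11) and Zeb1 (0.048) in 4716-11 against 4711-18 and Zeb1 on restoration in 4716-11 (-0.046), and for the Epcam response of 4716-11 against 4711-1 with a pseudocount of 0.1 (-0.098) and when an sgRNA was left out (-0.06 to 0.212, the former without sgBgal). The causes were not tested. The replicate block changed no other marker's call at both thresholds. The differences in response of 4711-18 that passed without the sgPpia#3.2 samples or that 1 library include Epcam, which was tested only because of its levels in 4711-18. TPM near or below 1, as for Epcam and Cdh2, limit what small differences can show.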
